A study of Mus musculus with 20 samples.

Results

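The chromatin of the nuclear factor I genes Nfia, Nfib and Nfix was compared between fetal and adult hematopoietic stem cells (HSCs) of the mouse. The members were the peaks of 8 lists, 1 for each of 4 histone marks at each stage, that overlapped a window around each gene in the mm9 build. The windows ran from 97.42 to 97.8 Mb of chromosome 4 for Nfia, from 81.92 to 82.17 Mb of chromosome 4 for Nfib, and from 87.237 to 87.335 Mb of chromosome 8 for Nfix. They held 165 of the 218887 peaks in all lists, with 53 in the Nfia window, 36 in the Nfib window and 76 in the Nfix window. The genes were chosen with the peak positions of these lists in view. The Nfia window in particular was selected on its fetal H3K27me3 and adult H3K4me3 peaks. Those lengths, and any count or ratio that includes them, are therefore a description and support nothing.

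Fetal HSCs came from the liver at embryonic day 14.5 and adult HSCs from the bone marrow of mice aged 6 to 8 weeks. All mice were of the B6129SF1 strain, and the labels name no other allele or treatment in either group. The sort took Lin-Sca1+cKit+CD135- cells, a gate that also lets in multipotent progenitors, and 50000 cells went into each chromatin immunoprecipitation (ChIP). Each mark had 2 replicates per stage, and each list was taken as 1 peak call on the pooled replicates, because the lists are named as combined. The values therefore carry no replicate error, no test between stages was possible and no p-value is given. A stage cannot be told apart from a library or a peak call, and a mark on some of the cells cannot be told apart from a weaker mark on all of them. The sorted cells could not be checked against marker genes, since no gene positions in mm9 were used here.

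Nuclear factor I proteins are transcription factors that bind DNA as dimers, at the palindrome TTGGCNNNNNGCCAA or at either arm of it alone. In blood, Nfix is known for the survival of transplanted stem and progenitor cells, and Nfia for the choice between erythroid and granulocytic fates. In adult erythroid cells, NFIA and NFIX take part in silencing the fetal globin genes. Nfib is best known for lung and brain development. Of the marks, H3K4me3 sits at promoters that are active or poised. H3K27ac accompanies regulatory elements in use, H3K4me1 is typical of enhancers and promoter flanks, and H3K27me3 is laid down by Polycomb on silent chromatin. A promoter with both H3K4me3 and H3K27me3 is called bivalent, a state often found at developmental regulators with CpG-rich promoters.

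Promoter sequences of the family were taken from RefSeq on GRCm38.p6, which lists 4 starts for Nfix and none for Nfib. Below are the 250 bases before the Nfix start richest in CpG dinucleotides and before the poorest one, both on the minus strand of chromosome 8, 5′ to 3′, with each CpG in capitals. They show how unlike the alternative starts of this gene are.

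Nfix start 1: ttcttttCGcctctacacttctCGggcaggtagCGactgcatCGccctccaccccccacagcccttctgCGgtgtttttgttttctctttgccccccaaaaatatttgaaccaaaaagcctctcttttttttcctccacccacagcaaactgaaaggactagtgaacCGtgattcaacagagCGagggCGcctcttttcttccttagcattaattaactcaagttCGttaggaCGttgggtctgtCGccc

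Nfix start 4: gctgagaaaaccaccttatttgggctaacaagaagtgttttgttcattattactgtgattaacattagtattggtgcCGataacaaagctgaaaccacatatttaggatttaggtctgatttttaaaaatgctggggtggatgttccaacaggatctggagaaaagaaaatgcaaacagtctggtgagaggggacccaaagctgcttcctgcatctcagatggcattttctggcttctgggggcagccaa

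Start 1 held 11 CpG dinucleotides and start 4 held 1, beside a median of 6 over all 32851 promoters of that table, with quartiles of 2 and 16. Starts 2 and 3 of Nfix held 4 and 7. Neither arm of the palindrome, TTGGC or GCCAA, was present before starts 1 and 3. Starts 2 and 4 each held 1 arm, and 41.5% of all promoters held at least 1 on either strand. The full palindrome was in none of the 4 and in 0.0365% of all promoters, each of which also counts among those with an arm. The Nfia start in that table held 1 CpG and neither arm, with 44.8% GC. The RefSeq model of Nfia is 540811 bp long, longer than its window of 380 kb, so it is not known whether that start lies in the window. None of these starts was placed on the mm9 peaks, and no peak is assigned below to a promoter, exon or intron.

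By covered length, the 3 windows had less H3K27me3 and more H3K4me3 in the adult list than in the fetal list. H3K27me3 peaks covered 20384 bp of the Nfia window in fetal and 395 bp in adult HSCs. In the Nfix window they covered 18607 bp in fetal and 532 bp in adult HSCs. The Nfib window stood apart, with 14517 bp in fetal and 6541 bp in adult HSCs. The fetal length was 51.6 times the adult length at Nfia, 35 times at Nfix and 2.22 times at Nfib. Over the whole genome it was 4.1 times, with 14823 fetal peaks over 38.3 Mb and 22964 narrower adult peaks over 9.34 Mb. So Nfia and Nfix lay above the ratio of the lists and Nfib below it. The Nfia window was selected on its fetal H3K27me3 and adult H3K4me3, so its ratios for these marks are a description only.

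H3K4me3 covered 5714 bp of the Nfia window in fetal and 8817 bp in adult HSCs, an adult length 1.54 times the fetal one. In the Nfix window it covered 4007 and 6363 bp, a ratio of 1.59. In the Nfib window it covered 3784 and 4596 bp, a ratio of 1.21. The longer adult length at Nfib came from 1 adult-only peak of 919 bp, while both regions listed at both stages were slightly shorter in the adult list. The whole lists covered almost equal lengths of this mark, with an adult length 1.01 times the fetal one. H3K27ac was listed over 5264 bp in fetal and 3643 bp in adult HSCs at Nfia, and over 7611 and 11219 bp at Nfix. At Nfib neither list held an H3K27ac peak. The adult length of H3K27ac was thus the longer one at Nfix only, while over the genome the fetal length was 1.51 times the adult one. With equal numbers of top-scoring H3K27ac peaks from both stages, Nfix had 3495 bp in fetal and 11219 bp in adult HSCs. This setting cut only the fetal list, from 23797 to 18205 peaks, so it could only shorten the fetal length.

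**Figure D1:**
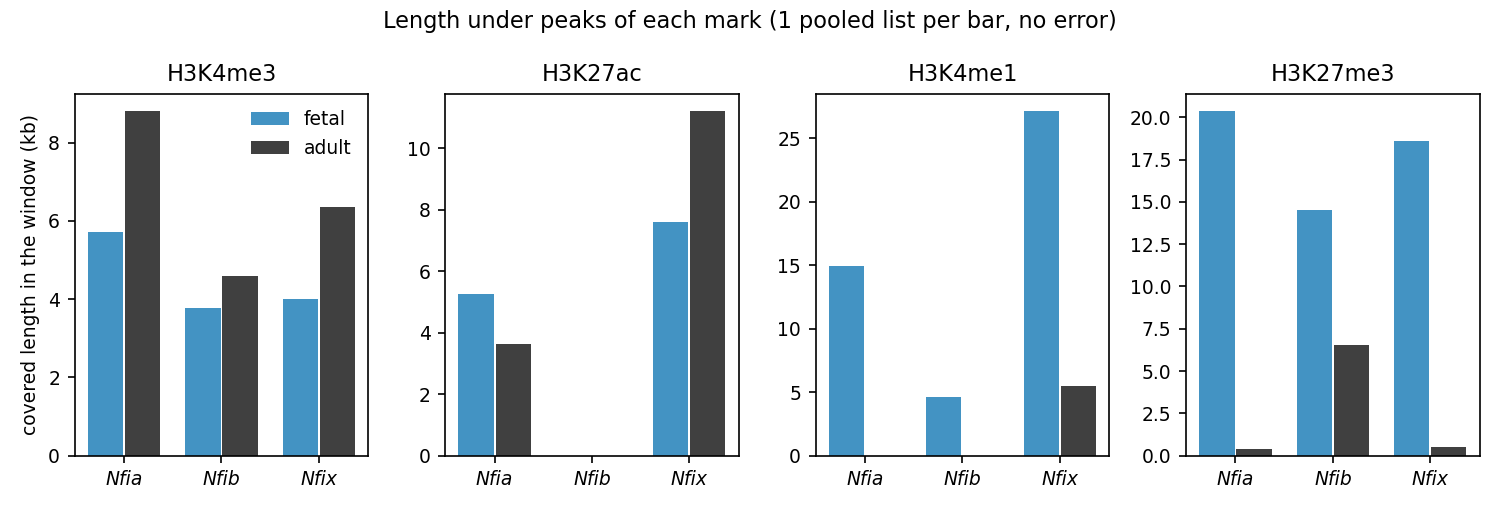
Length in kb under the peaks of each mark in the Nfia, Nfib and Nfix windows, with 1 bar per pooled list of fetal (blue) or adult (dark) HSCs and no error. Fetal H3K27me3 bars of 20384, 14517 and 18607 bp stand beside adult bars of 395, 6541 and 532 bp, and the H3K4me3 bars are longer in adult HSCs in each window.

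H3K4me1 is the mark for which the lists themselves were least alike, with 92784 fetal and 12517 adult peaks, and a fetal covered length 20.4 times the adult one. Nfia had 26 fetal peaks of H3K4me1 over 14941 bp and Nfib had 11 over 4600 bp, and the adult list had none in either window. Nfix kept this mark in both lists, with 31 fetal peaks over 27177 bp and 20 adult peaks over 5526 bp. The fetal length at Nfix was 4.92 times the adult one. Adult H3K4me1 covered 5.64% of the Nfix window, against 0.107% of the placed genome.

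**Figure D2:**
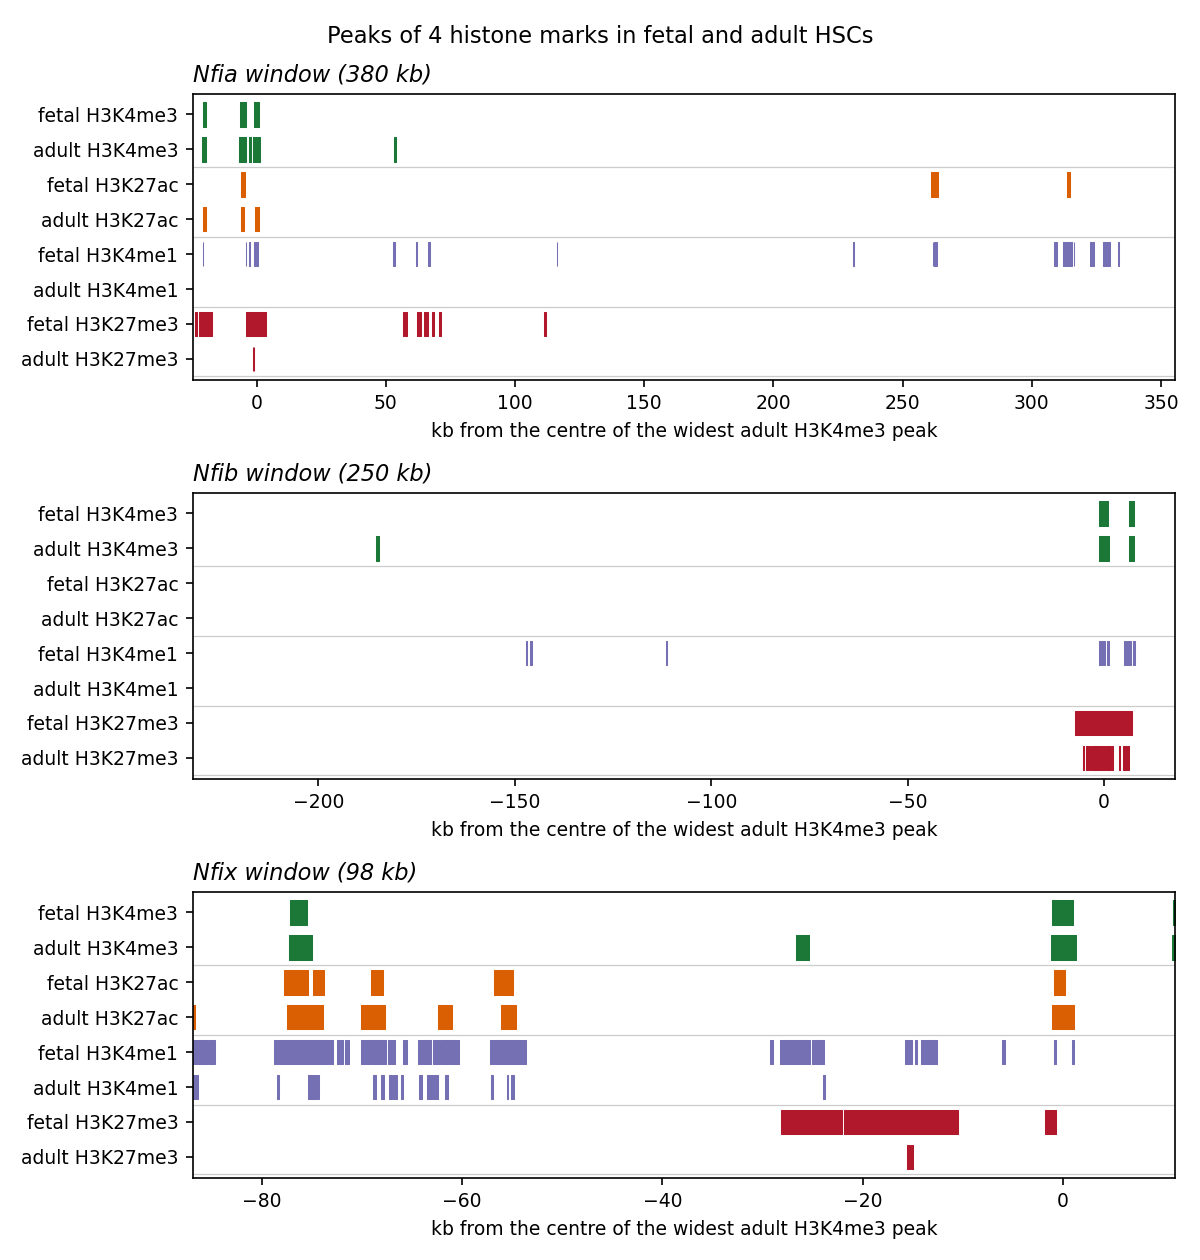
Position of every member peak in the 3 windows, in kb from the centre of the widest adult H3K4me3 peak, with 1 row per mark and stage. Fetal H3K4me1 and H3K27me3 rows are dense where the adult rows of Nfia are nearly empty, and the adult H3K4me1 peaks are all in the Nfix window.

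The H3K4me3 peaks of both stages merged into 12 regions, 5 at Nfia, 3 at Nfib and 4 at Nfix, numbered here along the chromosome. All 8 fetal H3K4me3 peaks shared at least 1 bp with an adult H3K4me3 peak, as did 91.0% of all fetal H3K4me3 peaks. Of the 12 adult peaks 8 shared a fetal one, against 92.8% of the adult list. The other 4 regions were listed in adult HSCs only, 2 at Nfia and 1 each at Nfib and Nfix. Over the genome 6.65% of merged H3K4me3 regions were listed in adult HSCs only. No region was listed in fetal HSCs only. Of the 8 regions listed at both stages, 6 were longer in the adult list, against 56.8% of all such regions, and these were the 3 of Nfia and the 3 of Nfix. Both such regions of Nfib were slightly shorter in the adult list.

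**Figure D3:**
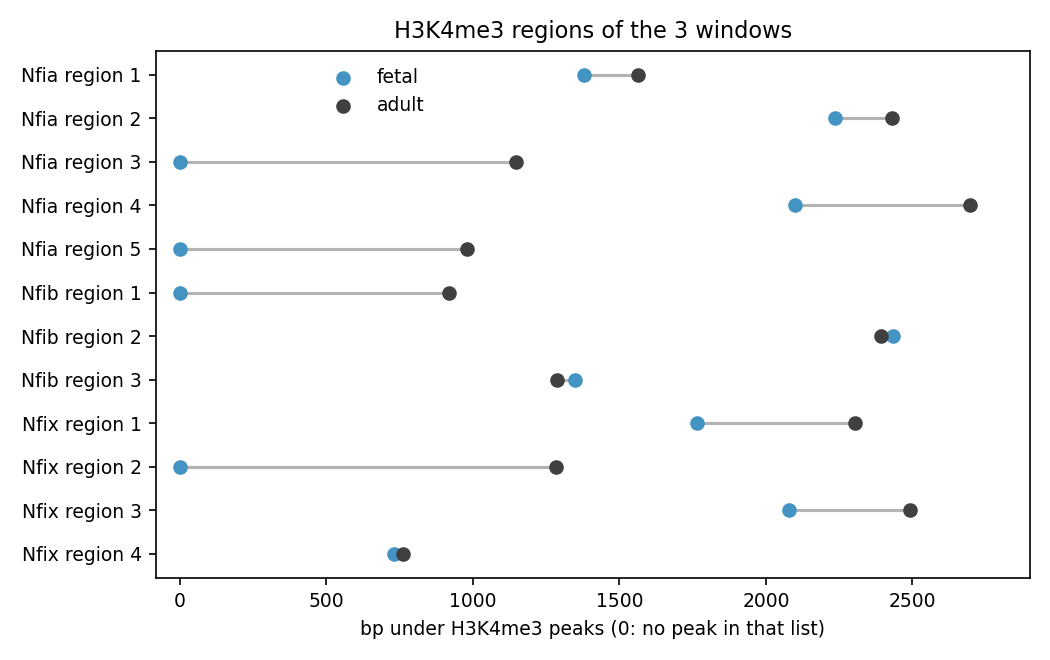
Length in bp under fetal (blue) and adult (dark) H3K4me3 peaks in each of the 12 H3K4me3 regions, with 0 where the list holds no peak. The adult point lies to the right of the fetal one in all regions of Nfia and Nfix, and to the left in Nfib regions 2 and 3.

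Fetal H3K4me3 peaks of the 3 genes overlapped fetal H3K27me3 in 5 of 8 cases, against 22.3% of the fetal list. These peaks, called bivalent here by an overlap of at least 1 bp, were 2 of 3 at Nfia, 2 of 2 at Nfib and 1 of 3 at Nfix. The Nfix peak shared only 410 bp with fetal H3K27me3 and also had fetal H3K27ac over 1103 bp. In adult HSCs 3 of 12 H3K4me3 peaks overlapped adult H3K27me3, against 12.9% of the adult list, namely 1 of 5 at Nfia, 2 of 3 at Nfib and 0 of 4 at Nfix. At Nfib both fetal bivalent peaks had a bivalent adult counterpart, but 1 of these shared only 45 bp with adult H3K27me3, and with at least 500 bp of overlap required 1 bivalent adult peak was left there. H3K27ac overlapped 3 of the 8 fetal H3K4me3 peaks and 5 of the 12 adult ones. These counts compare with 74.2% and 75.7% of the respective lists, so H3K4me3 without H3K27ac was common at these genes at both stages. With peaks below the median score of their own list removed, no bivalent peak was left in any window at either stage.

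The Nfia window held its H3K4me3 near its lower end. Region 4, chr4:97443344-97446040, had an H3K4me3 peak of 2098 bp in fetal HSCs with a score of 774.93, and of 2697 bp in adult HSCs with a score of 3100, the value at which scores pile up. Scores come from the authors' peak caller and rank peaks within 1 list only. Fetal H3K27me3 covered all 2697 bp of the region and adult H3K27me3 covered 220 bp. H3K27ac was listed there in adult HSCs only, over 1554 bp, with a score of 253.11 at 54.7% of the ranking of its list. The fetal H3K4me3 peak was at 61.5% of its list, so both peaks were below the median score. By these listed peaks, the region was bivalent in fetal HSCs and acetylated, with a remnant of H3K27me3, in adult HSCs.

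Region 1 of Nfia, chr4:97423696-97425257, had the same order of marks. Its H3K4me3 was 1381 bp long in fetal and 1562 bp in adult HSCs, fetal H3K27me3 covered all 1562 bp of it, and adult H3K27ac covered 1025 bp. Adult H3K27me3 did not reach it. The adult H3K27ac peak had a score of 83.93, at 83.4% of the ranking of its list. The fetal H3K4me3 peak had a score of 541.74, at 66.2%. With peaks below the median score of their own list removed, no H3K27ac was left at Nfia at either stage. Regions 1 and 4 of Nfia were the only 2 of the 12 regions in which fetal H3K27me3 went with H3K27ac in the adult list alone. Base by base, 1952 bp of the Nfia window had fetal H3K4me3 with H3K27me3 and adult H3K4me3 with H3K27ac, and a further 607 bp also had fetal H3K4me1.

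Region 2 of Nfia, chr4:97438020-97440450, lay between them and had no H3K27me3 peak at either stage. It was listed with H3K4me3 over 2235 bp in fetal and 2431 bp in adult HSCs, and with H3K27ac over 1399 and 1064 bp. It was the 1 region of this gene that carried H3K4me3 and H3K27ac at both stages. Region 3, chr4:97441529-97442675, had H3K4me3 in the adult list only, over 1147 bp that were fully covered by fetal H3K27me3. Region 5, chr4:97497654-97498633, was also adult only, over 980 bp, and lay on fetal H3K4me1 for 679 bp with no H3K27me3. The adult-only peaks were low in their list, with scores of 158.93 and 98.29 at 82.7% and 89.9% of the ranking from the top. Of the 4 adult-only H3K4me3 peaks of the 3 genes, 2 lay on fetal H3K27me3, against 20.0% of all adult-only peaks. Region 3 of Nfia is 1 of these 2 and part of the pattern on which that window was selected, so the count supports nothing.

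Regions 3 and 4 together made 3844 bp with fetal H3K27me3 and adult H3K4me3, the pattern on which the Nfia window was selected. Where pieces within 5 kb were joined, this stretch was at place 22 of 3286 by length, and the first, on chromosome 19, had 11468 bp. Where only bases without fetal H3K4me3 and without adult H3K27me3 were counted, it was at place 6 of 2101 with 1598 bp. By length it was therefore not the top region of the genome under either count. By the first count, region 1 of Nfia, with 1562 bp, was at place 857. Nfib region 2 was at place 193 with 2391 bp, and there adult H3K27me3 was still listed. Nfix region 2 was at place 1394 with 1284 bp. By the second count, without fetal H3K4me3 and adult H3K27me3, it was at place 23 of 2101 with the same 1284 bp. Nfib had no stretch under that count.

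Away from its H3K4me3 regions, the Nfia window held elements listed in fetal HSCs only. Fetal H3K27ac covered chr4:97705802-97708236 over 2435 bp, with 3 fetal H3K4me1 peaks under it. A second stretch, chr4:97753134-97778507, held 12 fetal H3K4me1 peaks over 8945 bp and 1 fetal H3K27ac peak of 1430 bp. The widest fetal H3K4me1 peak of the window, 1415 bp at chr4:97753134-97754548, lay in this stretch. No adult peak of any mark was listed in either place. Over the genome 33.5% of fetal H3K27ac peaks without H3K4me3 at either stage overlapped an adult H3K27ac peak. For all H3K27ac peaks at Nfia, 1 of 3 fetal and 1 of 3 adult peaks were shared between stages, the pair in region 2, against 65.3% of all fetal and 88.6% of all adult H3K27ac peaks. Fetal H3K27me3 also formed 8 short peaks of 517 to 1469 bp between positions 97501356 and 97556759, and 1 of 974 bp at position 97420649, none with adult H3K27me3.

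The Nfib window held 1 wide fetal H3K27me3 peak, chr4:82144569-82159085, of 14517 bp. Both of its shared H3K4me3 regions overlapped this peak. Region 2, chr4:82150617-82153175, had H3K4me3 over 2435 bp in fetal and 2391 bp in adult HSCs, with H3K27me3 over 2559 bp in fetal and 1598 bp in adult HSCs. Region 3, chr4:82158229-82159635, had H3K4me3 over 1349 and 1286 bp and H3K27me3 over 857 and 166 bp. Their scores were 730.15 and 560.56 in the fetal list and 514.93 and 244.33 in the adult list, all below the median score of their own list. The adult H3K4me3 peak of region 3 shared 45 bp with adult H3K27me3. So H3K4me3 and H3K27me3 overlapped at Nfib at both stages, mainly in region 2 in adult HSCs, with no H3K27ac at either.

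Region 1 of Nfib, chr4:81966498-81967416, had 919 bp of H3K4me3 in the adult list only, with a score of 95.66 and no other mark at either stage. The adult H3K27me3 of Nfib was a row of 19 small peaks, all within the fetal peak, that spanned 11787 bp from position 82146608 to 82158394. Their widths ran from 163 to 647 bp with a median of 325 bp, and the gaps between them from 3 to 1397 bp with a median of 197.5 bp. The widest, 647 bp at chr4:82149498-82150144, had a score of 252.29, at 15.3% of the ranking of its list. Fetal H3K4me1 overlapped both shared regions, over 1530 bp of region 2 and 994 bp of region 3. Of the remaining fetal H3K4me1 peaks, 4 lay away from the H3K27me3, and the widest of these had 280 bp.

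**Figure D4:**
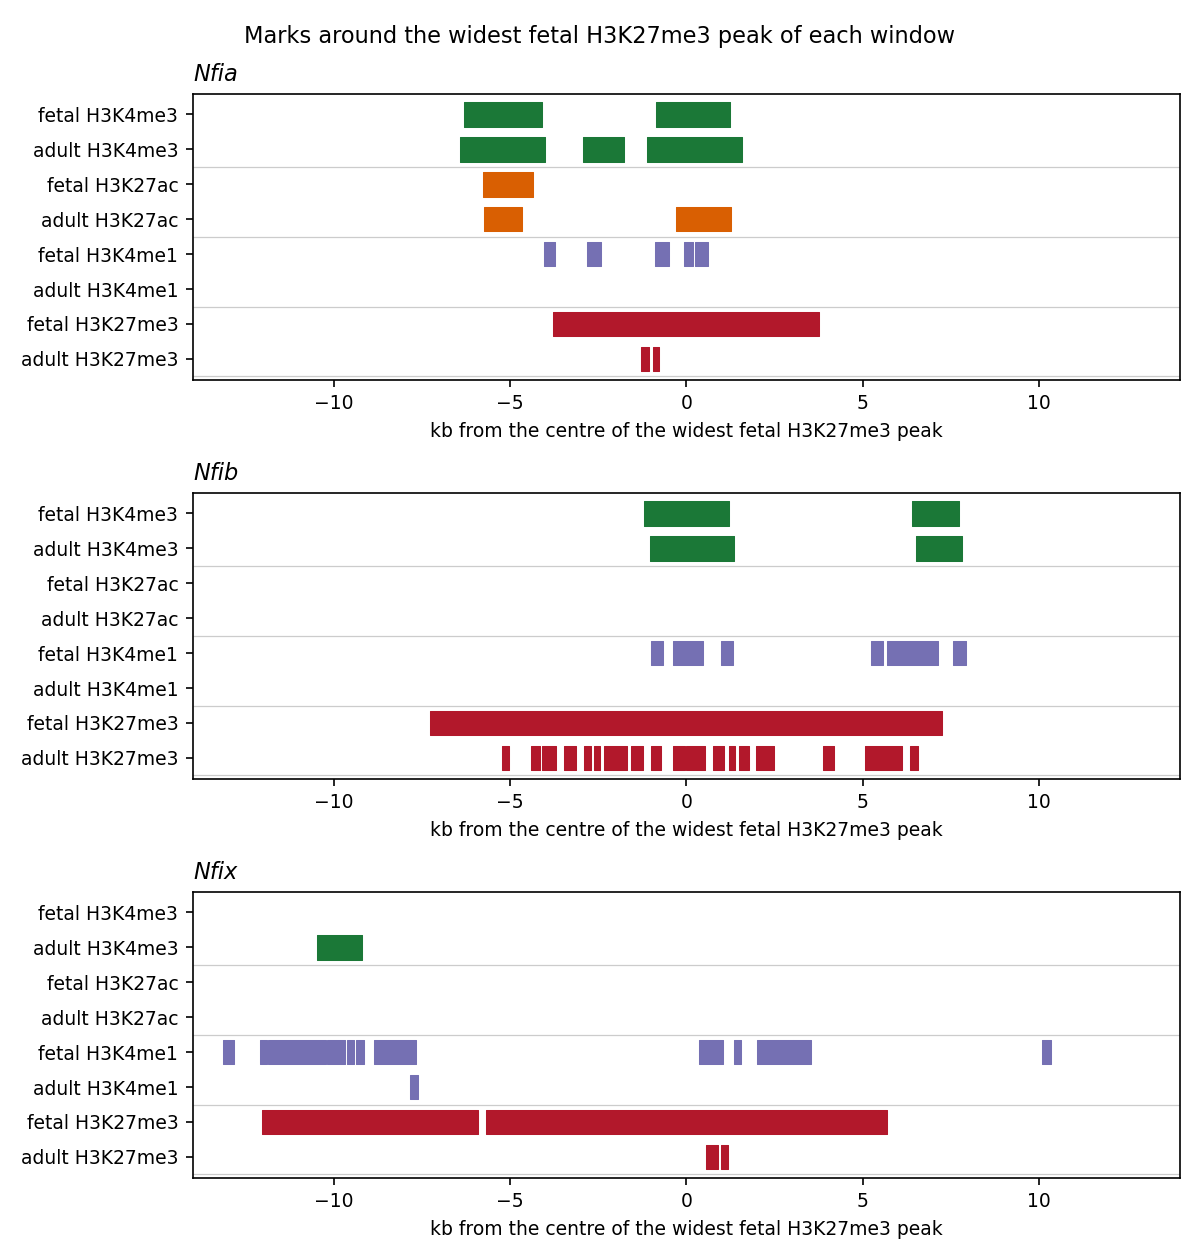
Peaks of each mark in kb from the centre of the widest fetal H3K27me3 peak of each window, with 1 row per mark and stage. The fetal H3K27me3 peak of Nfib is filled with 19 short adult peaks, while those of Nfia and Nfix hold 2 each, and adult H3K27ac overlaps the fetal H3K27me3 peak at Nfia.

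In the Nfix window fetal H3K27me3 lay in the upper part only. H3K27ac was listed in both parts, and in the upper part it lay at region 3. In the lower part, chr8:87235726-87270266, H3K27ac had 5 fetal peaks over 6508 bp and 6 adult peaks over 10239 bp, and no H3K27me3 peak was listed at either stage. These H3K27ac peaks include those on H3K4me3 region 1, of 2392 bp in fetal and 2797 bp in adult HSCs. Among the member peaks, H3K4me1 had 17 fetal peaks over 19932 bp and 19 adult peaks over 5344 bp. A further fetal H3K4me1 peak of 765 bp in this stretch lay below the window edge and was not counted. The widest fetal H3K4me1 peak, 5835 bp at chr8:87245134-87250968, had a score of 2985.73 and overlapped region 1. Outside the H3K4me3 regions, this was the stretch of the 3 windows with H3K27ac peaks listed at both stages. In the Nfix window all 6 fetal H3K27ac peaks and 5 of 7 adult ones shared at least 1 bp between stages. The fetal peak chr8:87267046-87267840 shared only 45 of its 795 bp and had a score of 51.48, near the lowest score of 50. With at least 50% of the peak covered, 5 fetal and 4 adult peaks were shared. By the overlap of at least 1 bp, Nfix and Nfia together had 7 of 9 fetal peaks shared, against 65.3% of the fetal list. Of the adult peaks 6 of 10 were shared, against 88.6% of the adult list.

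The adult-only H3K27ac peaks of Nfix were chr8:87235726-87237210, which crosses the lower edge of the window, and chr8:87261472-87262816. Of the 31 fetal H3K4me1 peaks at Nfix 10 overlapped an adult one, which made 10 of 68 for the 3 genes, against 9.22% of the fetal list. All 20 adult H3K4me1 peaks overlapped a fetal one, against 87.4% of the adult list. H3K4me1 lay on 8 of the 9 fetal H3K27ac peaks of the 3 genes, against 88.1%, and on 6 of the 10 adult ones, against 20.7%. All 6 of these adult peaks were at Nfix, where they were 6 of 7.

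Region 1 of Nfix, chr8:87246624-87248926, had H3K4me3 over 1766 bp in fetal and 2303 bp in adult HSCs and H3K27ac over 1905 and 2303 bp. Region 3, chr8:87322611-87325103, was the strongest of this gene, with H3K4me3 scores of 2551.73 in the fetal and 2487.27 in the adult list over 2078 and 2493 bp. H3K27ac covered 1103 bp of it in fetal and 2255 bp in adult HSCs. The fetal H3K27ac peak there had a score of 113.05, at 75.7% of the ranking of its list, and the adult one 856.97, at 24.6%. Fetal H3K27me3 overlapped region 3 over 550 bp through a peak of 1121 bp, and the adult list had none there. Region 3 was therefore acetylated at both stages, with H3K27me3 at 1 side of it in fetal HSCs.

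Region 2 of Nfix, chr8:87297221-87298504, was an adult-only H3K4me3 peak of 1284 bp with a score of 313.19, and no H3K27ac was listed on it. It lay wholly on fetal H3K27me3, and fetal H3K4me1 covered 1133 bp of it. Region 4, chr8:87334718-87335567, crosses the upper edge of the window and had H3K4me3 over 730 bp in fetal and 763 bp in adult HSCs with no H3K27ac or H3K27me3. The fetal H3K27me3 of the upper part lay mainly in a pair of neighbouring peaks, chr8:87295657-87301779 of 6123 bp and chr8:87302014-87313376 of 11363 bp. Fetal H3K4me1 was listed with H3K27me3 there. Over the 3 genes, 7 of 15 fetal H3K27me3 peaks overlapped fetal H3K4me1, against 30.7% of the fetal list, and 0 of 23 adult ones did in the adult lists, against 1.88%. Fetal H3K4me3 lay on 4 of the 15 fetal H3K27me3 peaks, against 26.3%, and adult H3K4me3 on 8 of the 23 adult ones, against 18.6%.

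H3K27me3 was compared directly by the share of each fetal peak that adult peaks covered. Of the 15 fetal H3K27me3 peaks of the 3 genes 3 overlapped adult H3K27me3, against 35.5% of the fetal list. All 23 adult ones overlapped a fetal one, against 92.4% of the adult list, but 19 of them were pieces within 1 fetal peak at Nfib. Since wide peaks have more room for an overlap, the 5 members of at least 5000 bp were set beside the 1794 fetal peaks of that width. Of all those wide peaks 95.4% overlapped adult H3K27me3, and the median share covered was 34.2%, with quartiles of 20.3% and 47.9%. The 14517 bp peak of Nfib had 45.1% of its length under adult peaks, and 70.1% of wide peaks had less. The 7543 bp peak of Nfia, chr4:97440678-97448220, had 5.24%, and 7.69% of wide peaks had less.

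The 11363 bp peak of Nfix had 4.68% of its length under adult peaks, and 7.13% of wide peaks had less. Neither the 6123 bp peak of Nfix nor the 5077 bp peak of Nfia, chr4:97422243-97427319, shared any base with an adult peak. The wide peaks of Nfia, Nfib and Nfix had scores of 1450.32 or more, and the widest of each gene reached 3100. Nfib thus lay near the upper quartile of wide fetal peaks, and the 4 wide peaks of Nfia and Nfix lay below the lower quartile. The adult peaks that remained at Nfia, of 226 and 169 bp, had scores of 59.52 and 63.16, near the lowest score of 50 in the lists. With equal numbers of top-scoring peaks from both stages, adult H3K27me3 was 0 bp at Nfia and 339 bp at Nfix. For this mark the setting cut only the adult list, which held more peaks, so it could only shorten the adult length.

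**Figure D5:**
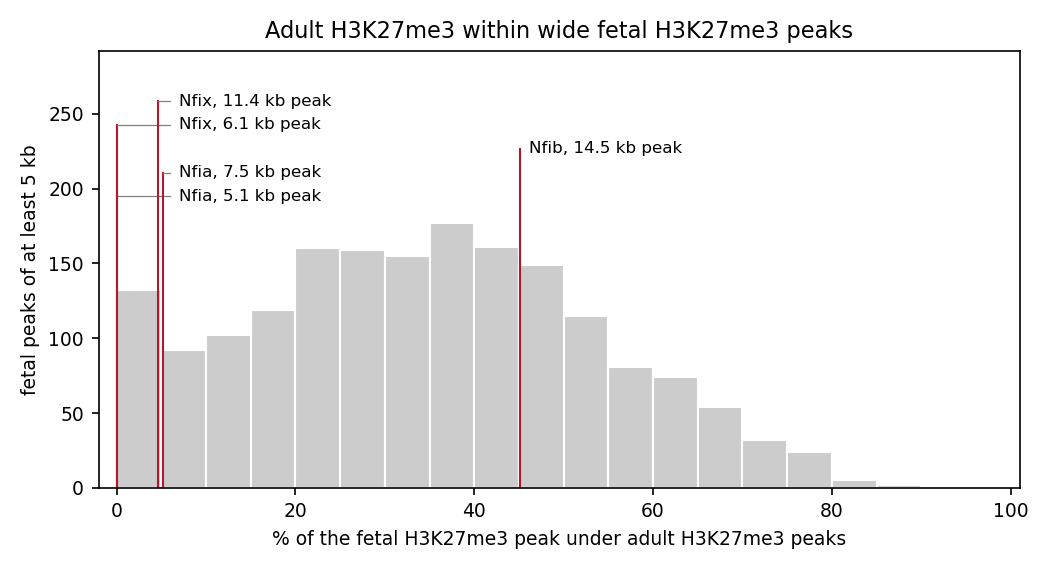
Number of fetal H3K27me3 peaks of at least 5 kb by the percent of their length under adult H3K27me3 peaks, over the whole genome (grey), with red lines at the 5 peaks of the 3 windows. The Nfib line is at 45.1%, and the lines of Nfia and Nfix are at 5.24%, 4.68% and 0%.

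The edges of the windows cut through marked chromatin at Nfia and Nfix. Just below the Nfia window, at 0.539 kb, lay an adult H3K4me3 peak of 1880 bp, with a fetal one of 1504 bp at 0.766 kb and H3K27ac peaks at both stages. Above it the nearest peak of any list was a fetal H3K4me1 peak at 68.8 kb. Above the Nfib window, at 10.3 kb, lay a fetal H3K27me3 peak of 6123 bp with a score of 3073.31. An adult H3K27me3 peak of 328 bp, at 11.8 kb, lay within it. With the window longer by 50 kb, H3K27me3 at Nfib covered 20640 bp in fetal and 9417 bp in adult HSCs. Below the Nfix window, at 4.3 kb, lay a fetal H3K4me3 peak of 7873 bp, with an adult one of 7187 bp and H3K27ac peaks of 10480 and 10431 bp. In RefSeq the Nfix gene overlaps Lyl1, a stem cell transcription factor gene, so peaks near this edge cannot be divided between the 2 genes here. RNA genes also overlap these genes in RefSeq, with 5 at Nfia, 1 at Nfib and G430095P16Rik at Nfix. Peaks were not divided among those either.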

How the data were processed

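Histone marks were measured by ChIP-seq with single-end reads in sorted fetal and adult HSCs. Reads were aligned with Bowtie2 2.2.2 to mm9, per the submitters' processing notes. The deposited lists name each peak after MACS; the version, settings and control of this caller are not given in the sources used here. The authors deposited 1 list per mark and stage with position and score. The score has no stated unit, was at least 50, and was used only to rank or filter within a list. Read depth is unknown. Input samples, 4 in all, were not used here. Peaks sharing at least 1 bp counted as overlapping. Covered length merged the peaks of a list within a window, and the placed genome of 2638.35 Mb was taken to the last peak of each chromosome. Ratios of covered length move with how much was called. Every H3K4me3 peak was given by position, and of other marks the widest peaks, those on H3K4me3, and others by counts. Stretches were H3K4me1 and H3K27ac peaks within 10 kb of each other, and their counts take in every member peak between their ends. The lower stretch of Nfix spans H3K4me3 region 1. The members and lists were chosen with earlier results of these data known. Simulated lists with planted overlaps were used to test the code. Python 3.11.15, numpy 2.4.6 and matplotlib 3.10.9 were used.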

Additional observations from a re-analysis of the deposited data

How the results depend on the processing

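Of 284 alternative values of 82 results, 194 stayed within 1.5 times the reported value. These include H3K27ac at Nfib and adult H3K4me1 at Nfia and Nfib, which were 0 under every setting. Filtering an empty list cannot change it, so the tally does not measure how stable the other values are. For H3K27ac at Nfib the stages were tied at 0 bp throughout, and these ties count among the orders that stayed. Of 48 orders of the stages by covered length 2 did not stay, since both stages became 0 bp, for H3K27ac at Nfia and H3K4me3 at Nfib with peaks at or above the median score of their list. With those peaks, H3K4me3 was 2235 bp at Nfia in fetal HSCs, 0 bp at Nfib at both stages, and 2078 and 2493 bp at Nfix in fetal and adult HSCs. Adult H3K27me3 was then 0 bp at Nfia and 339 bp at Nfix, and the length with fetal H3K27me3 and adult H3K4me3 was 0 bp at Nfib and Nfix. Bivalent peaks were 0 in every window and stage. Fewer peaks enter under this setting by construction. With equal numbers of top-scoring peaks, adult H3K27me3 was 0 bp at Nfia and 339 bp at Nfix. That setting cut only the list with more peaks, which for H3K27me3 was the adult one. With at least 500 bp of overlap, bivalent peaks were 0 at Nfia in adult, 1 at Nfib in adult and 0 at Nfix in fetal HSCs. Windows longer by 50 kb gave 29755 and 31866 bp of fetal and adult H3K4me3 at Nfix, since they take in its neighbours. The Nfia stretch was at place 11 with pieces within 1 kb joined, and at place 6 without fetal H3K4me3 and adult H3K27me3. No replicate could be left out, and no paired analysis was possible because the lists hold pooled replicates. The depth behind the lists is unknown, so a missing peak is not shown to be a missing mark.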
